A study of Mus musculus with 27 samples.

Results

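10 symbols of 9 macrophage-associated genes are described here by their probe levels in cells sorted from the inflamed mouse colon: Trem2, Tyrobp, Spp1, Fcrls, Msr2, Gpnmb, Lgals3, Cd9, Cd63 and Cd81. They were chosen by symbol, because several of them were lower without Mbd2 in an earlier pass over these same arrays, so their genotype differences in macrophages and monocytes are given as descriptions with standard errors and without p-values. The 10 symbols correspond to 16 of the 45281 probes on the array, and Msr2 is an older symbol of Fcrls. RNA from 3 sorted cell types of the colon lamina propria was hybridised to Illumina bead arrays: monocytes (CD11b+ Ly6C+), macrophages (CD11b+ F4/80+ MHC-II+ Ly6C-) and type 1 conventional dendritic cells (cDC1s, CD11b- CD11c+ CD103+, labelled CD11bnegDC). Donor mice were wild-type (WT) or lacked the methyl-CpG-binding protein Mbd2 in every cell (Mbd2-/-, labelled Mbd2KO), all on a C57BL/6 background. Every donor of the colon cells, WT included, had received 2% dextran sulfate sodium (DSS) in the drinking water. DSS injures the epithelium and causes colitis, so no untreated colon is part of these comparisons. Monocytes and macrophages were each represented by 5 WT and 5 Mbd2-/- arrays and cDC1s by 2 WT and 3 Mbd2-/- arrays, each array holding RNA of 1 or more pooled mice whose age the labels do not give. The deletion is carried by every cell of the mouse and is not restricted to the sorted cells.

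Trem2 is a lipid- and ligand-sensing receptor of macrophages and microglia that has no signalling motif of its own and signals through the adaptor Tyrobp (DAP12). Trem2-bearing macrophages of fat, vessel wall, tumour and brain are known to carry a shared set of transcripts that includes Spp1 (osteopontin, a secreted matrix and cytokine protein), Gpnmb (a lysosomal and membrane glycoprotein), Lgals3 (galectin-3, a galactoside-binding lectin) and the tetraspanins Cd9 and Cd63, which organise membrane and endosomal complexes. Fcrls is a scavenger receptor-like relative of the Fc receptor-like family best known as a microglial marker, and Cd81 is a tetraspanin of the cell surface.

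The colon arrays measured between 16024 and 18608 probes above background, defined as a detection p-value under 0.05 relative to that array's negative controls. The values below are log2 intensities after background correction and quantile normalization, in which a spot with no signal lies near 4, and levels of different probes cannot be set against each other. Defining markers matched the sorted cell types in the main, although epithelial and stromal transcripts were present too. The 8 cDC1 genes on the array summed to between 10535 and 13015 units of linear intensity in cDC1s and to between 508 and 1315 in the other cells, with Itgae (CD103) at 13.12 and 13.00 in WT and Mbd2-/- cDC1s and Flt3 and Naaa near background. The 10 macrophage markers summed to between 42986 and 51227 in macrophages, to between 17576 and 22367 in monocytes, and to between 1533 and 4398 in cDC1s, and all 10 were above background on every monocyte array. The monocyte gene Ly6c1 averaged 12.23 and 12.50 in WT and Mbd2-/- monocytes against 8.38 and 9.28 in the macrophages of each genotype, and Ccr2 was above background on 1 of 5 WT monocyte arrays and on none of the Mbd2-/- monocyte arrays. Of the 7 epithelial markers, 6 were above background on every colon array, and the 7 summed to between 2366 and 11098. The 5 stromal markers were above background on every colon array and summed to between 709 and 4139. The part of these transcripts in the member levels was not tested. The Mbd2 probe was above background on 0 of 27 arrays and therefore did not check the genotype labels. In sorted bulk cells, fewer cells with a transcript and less of it per cell cannot be told apart.

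Trem2 RNA was highest in WT macrophages, intermediate in monocytes, and at the edge of detection in cDC1s. On the 5 WT macrophage arrays the probe read 9.30, 10.48, 10.01, 9.75 and 9.91, and on the 5 Mbd2-/- macrophage arrays it read 8.87, 8.65, 9.10, 8.25 and 8.56. Every Mbd2-/- value lay under every WT value, a difference of -1.20 ± 0.19 (log2, SE), or 2.30-fold lower. WT monocytes read 9.16, 8.95, 9.38, 8.97 and 8.72, and Mbd2-/- monocytes 8.37, 8.20, 8.43, 8.15 and 7.92. The monocyte groups did not overlap either, at -0.82 ± 0.19 (log2, SE). Of all symbols tested, 3.34% in macrophages and 3.19% in monocytes were lower in Mbd2-/- cells without overlap. In cDC1s the values were 4.58 and 4.62 in WT and 4.86, 4.35 and 4.94 in Mbd2-/- cells, with 1 of 3 Mbd2-/- arrays not above background. The cDC1 genotypes overlapped and their difference did not pass the test (0.11 ± 0.27, adjusted p = 0.843, limma), close to the background. WT macrophages exceeded WT monocytes by 0.85 ± 0.19 (adjusted p = 0.00166, limma; 0.70 and adjusted p = 0.110 with median scaling), while the same comparison in Mbd2-/- cells gave 0.47 ± 0.19 (adjusted p = 0.0635, limma). In order of mean level, WT macrophages, WT monocytes, Mbd2-/- macrophages and Mbd2-/- monocytes followed each other with overlapping arrays at each step, and both cDC1 groups lay far lower.

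Tyrobp, the adaptor that carries the Trem2 signal, did not follow its receptor. It was bright in all samples, between 12.05 and 12.53 in the 20 monocyte and macrophage arrays, with Mbd2-/- minus WT differences of 0.05 ± 0.08 in macrophages and 0.09 ± 0.08 in monocytes (log2, SE). In cDC1s it read 10.97 and 10.87 in WT and 11.08, 11.11 and 11.35 in Mbd2-/- cells, 0.26 ± 0.11 higher without passing the test (adjusted p = 0.164, limma). Relative to macrophages, Tyrobp in cDC1s fell by 1.24 in WT and by 1.03 in Mbd2-/- cells (SE 0.10 and 0.09, limma adjusted p = 1.74e-09 and 3.15e-09). The fall of Trem2 between the same cells was larger, -5.28 ± 0.25 in WT and -3.97 ± 0.21 in Mbd2-/- cells (limma adjusted p = 6.59e-14 and 5.46e-13).

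**Figure D1:**
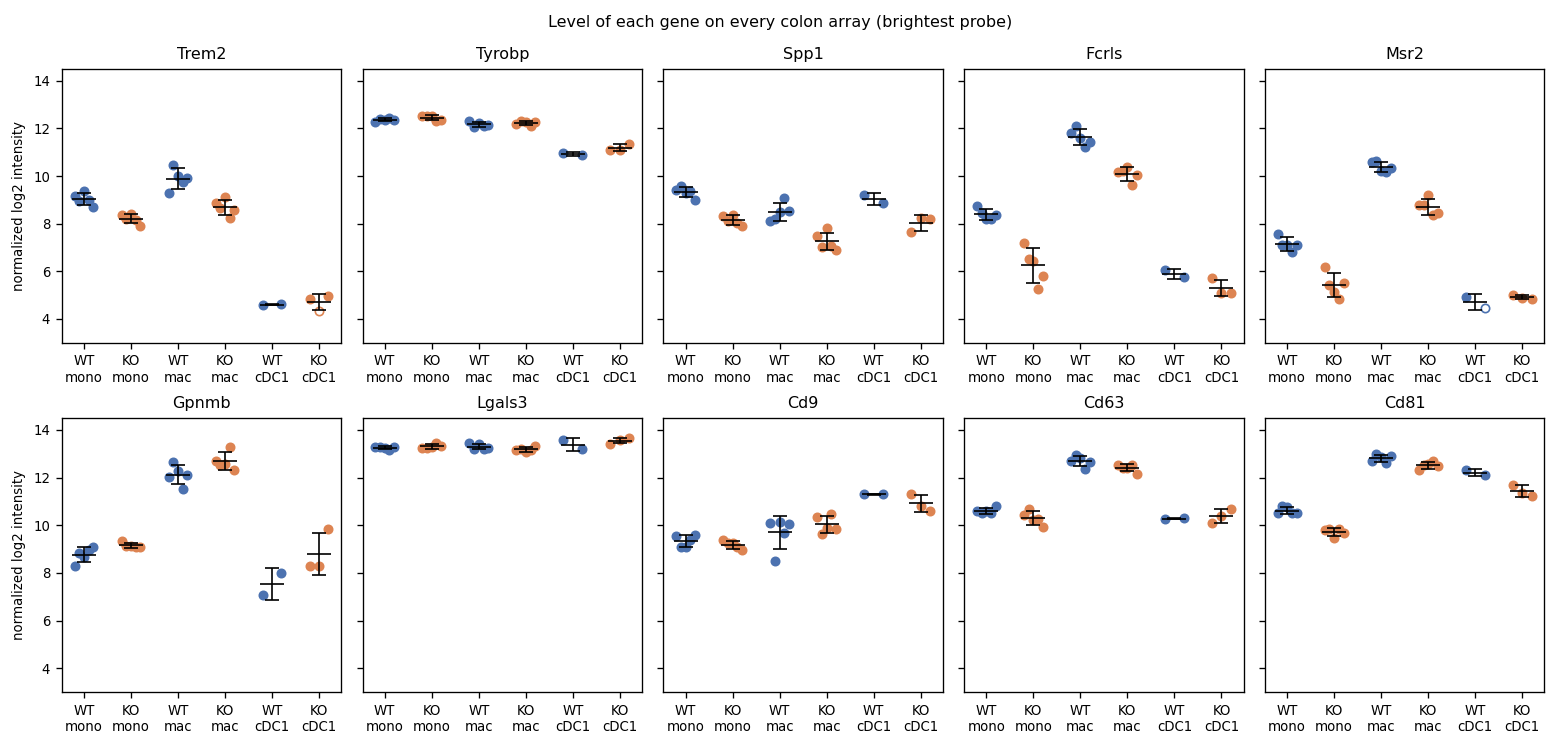
Normalized log2 intensity (y axis) of the brightest probe of each gene on every colon array, by genotype and sorted cell type (x axis; mono, monocytes; mac, macrophages; KO, Mbd2-/-; filled points, above background; open points, not above background; bars, mean and SD). Trem2, Fcrls, Msr2 and Spp1 separate the WT from the Mbd2-/- arrays of monocytes and of macrophages, while Tyrobp and Lgals3 stay within a narrow band there.

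Fcrls, which 2 separate probes measured, had the largest genotype differences of the 10 symbols in monocytes and macrophages. The probe annotated Fcrls and the brighter probe annotated Msr2 carry different versions of 1 RefSeq transcript, and both match Fcrls in RefSeq. On the Fcrls probe, WT macrophages read 11.83, 12.08, 11.59, 11.21 and 11.43 and Mbd2-/- macrophages 10.16, 10.20, 10.37, 9.61 and 10.06, which is -1.55 ± 0.25 (log2, SE). The Msr2 probe gave 10.60, 10.62, 10.21, 10.16 and 10.32 in WT and 8.77, 8.77, 9.19, 8.36 and 8.45 in Mbd2-/- macrophages, which is -1.68 ± 0.20. Neither probe had overlapping genotypes, so the 2 measurements of the gene separated the same arrays. WT monocytes read 8.75, 8.44, 8.19, 8.21 and 8.37 on the Fcrls probe and Mbd2-/- monocytes 7.19, 6.51, 6.44, 5.28 and 5.81, a difference of -2.14 ± 0.25, and the Msr2 probe differed by -1.72 ± 0.20. The Mbd2-/- monocytes were the most uneven of the groups on the Fcrls probe, with an SD of 0.73 against 0.23 in WT monocytes. In cDC1s the Fcrls probe read 6.05 and 5.76 in WT and 5.71, 5.08 and 5.11 in Mbd2-/- cells, which did not pass the test although the arrays did not overlap (-0.60 ± 0.36, adjusted p = 0.322, limma), and the Msr2 probe was above background on 1 of 2 WT arrays and gave 0.21 ± 0.29 (adjusted p = 0.703, limma). Of all symbols tested in cDC1s, 14% were lower in Mbd2-/- cells without overlap. Fcrls rose from monocytes to macrophages by 3.24 ± 0.25 in WT and by 3.83 ± 0.25 in Mbd2-/- cells (limma adjusted p = 2.83e-09 and 1.52e-10), 9.42-fold and 14.2-fold. From macrophages to cDC1s it fell by 5.72 in WT and by 4.78 in Mbd2-/- cells (SE 0.33 and 0.29, limma adjusted p = 3.08e-12 and 4.66e-12). A further Msr2 probe with no accession was above background on 3 of 5 macrophage arrays of each genotype and on none of the other 15 colon arrays, and it did not separate the genotypes.

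Spp1 differed between genotypes in all 3 cell types, and its order across cell types was unlike that of Trem2 or Fcrls. WT macrophages read 8.12, 8.18, 8.50, 9.06 and 8.52 and Mbd2-/- macrophages 7.46, 7.04, 7.81, 7.06 and 6.91, without overlap and with a difference of -1.22 ± 0.18 (log2, SE). WT monocytes read 9.43, 9.58, 9.31, 9.35 and 8.98 and Mbd2-/- monocytes 8.34, 8.12, 8.37, 8.03 and 7.91, also without overlap, at -1.18 ± 0.18. In cDC1s the values were 9.20 and 8.87 in WT and 7.64, 8.22 and 8.19 in Mbd2-/- cells, and here, where the difference could be tested, Spp1 fell by 1.01 (SE 0.27, adjusted p = 0.0254, limma). That call held in 8 of 15 other settings and was lost without WT array 23 (-0.85, adjusted p = 0.208) and without Mbd2-/- array 27 (-0.83, adjusted p = 0.0627), and when the cDC1 arrays were fitted alone (-0.96, adjusted p = 0.349). Unlike Fcrls, Spp1 fell from monocytes to macrophages, by 0.85 in WT (SE 0.18, adjusted p = 0.00149, limma) and by 0.90 in Mbd2-/- cells (SE 0.18, adjusted p = 0.000756, limma; -0.72 and adjusted p = 0.0873 with median scaling). WT monocytes were the highest group, at 9.33, and Mbd2-/- macrophages the lowest, at 7.25, with overlapping arrays at each step between them. Spp1 in Mbd2-/- cDC1s exceeded that in Mbd2-/- macrophages by 0.77 ± 0.21 (adjusted p = 0.00505, limma), a direction that turned to -0.056 with median scaling of the arrays, and the WT cells gave 0.56 ± 0.24 (adjusted p = 0.0766, limma), or 0.70 (adjusted p = 0.0184) without WT macrophage array 14.

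**Figure D2:**
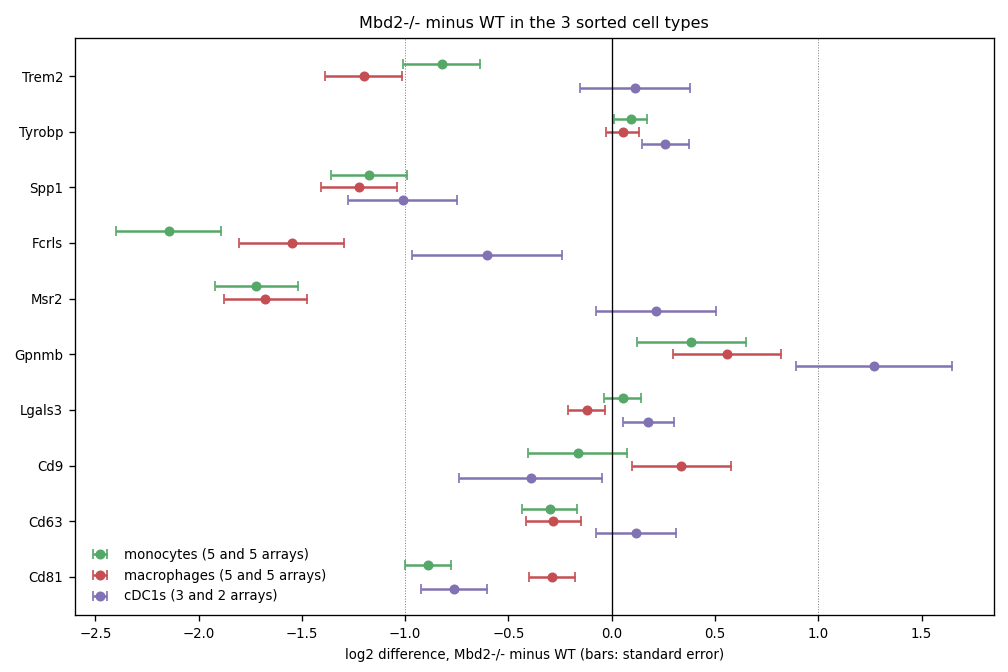
Mbd2-/- minus WT difference on the log2 scale (x axis) for each gene (y axis) in monocytes, macrophages and cDC1s; points are estimates, bars standard errors, and dotted lines mark 1 log2 unit. Fcrls, Msr2 and Trem2 lie left of 0 in monocytes and macrophages and Spp1 in all 3 cell types, whereas Gpnmb lies right of 0.

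The Gpnmb mean was higher in Mbd2-/- than in WT cells of all 3 types, and Lgals3 differed little between genotypes. On its brightest probe Gpnmb read 12.03, 12.66, 12.29, 11.52 and 12.12 in WT macrophages and 12.69, 12.52, 12.56, 13.30 and 12.33 in Mbd2-/- macrophages, overlapping groups with a difference of 0.56 ± 0.26 (log2, SE). Monocytes overlapped as well, at 0.39 ± 0.26. In cDC1s it was 7.07 and 8.01 in WT and 8.29, 8.30 and 9.83 in Mbd2-/- cells, a rise of 1.27 ± 0.38 (adjusted p = 0.0454, limma). The call held in 6 of 15 other settings. Leaving out Mbd2-/- array 30 gave 0.76 (adjusted p = 0.191) and leaving out WT array 23 gave 0.80 (adjusted p = 0.418), so the call rested on each of these arrays. The 10 macrophage markers summed to 4398 on Mbd2-/- cDC1 array 30, the brightest for Gpnmb, to 2621 on array 27 and 1806 on array 28, and to 1533 and 1607 on the WT cDC1 arrays. Their part in the Gpnmb result was not tested. Gpnmb rose from monocytes to macrophages by 3.36 ± 0.26 in WT and 3.53 ± 0.26 in Mbd2-/- cells (limma adjusted p = 2.80e-09 and 9.92e-10), 10.3-fold and 11.6-fold. The 3 dimmer Gpnmb probes were above background on at most 1 of 10 monocyte arrays each, and in macrophages their genotype differences lay between 0.21 and 0.63, all upward as on the brightest probe. Lgals3 read between 13.07 and 13.46 in monocytes and macrophages of both genotypes, with genotype differences of -0.12 ± 0.09 in macrophages and 0.05 ± 0.09 in monocytes. Lgals3 in Mbd2-/- cDC1s exceeded that in Mbd2-/- macrophages by 0.37 ± 0.10 (adjusted p = 0.00392, limma), the only comparison between cell types in which it passed the test, and it did not pass with median scaling (0.29, adjusted p = 0.188).

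Of the 3 tetraspanins, Cd81 differed between genotypes in monocytes and cDC1s, and Cd9 and Cd63 overlapped throughout. WT monocytes read 10.51, 10.79, 10.76, 10.50 and 10.51 for Cd81 and Mbd2-/- monocytes 9.78, 9.86, 9.45, 9.85 and 9.67, a gap without overlap of -0.89 ± 0.11 (log2, SE). In macrophages the genotypes overlapped, at -0.29 ± 0.11, with WT arrays between 12.61 and 12.97. WT cDC1s read 12.31 and 12.10 and Mbd2-/- cDC1s 11.71, 11.37 and 11.24, and Cd81 fell by 0.76 there (SE 0.16, adjusted p = 0.00857, limma), 1.70-fold lower and short of the 2-fold limit for a call. It was no longer past the test without WT array 23 (-0.66, adjusted p = 0.0837), with array weights (-0.74, adjusted p = 0.0605) or with the cDC1 arrays fitted alone (-0.84, adjusted p = 0.349). Cd81 rose from monocytes to macrophages by 2.20 ± 0.11 in WT and 2.80 ± 0.11 in Mbd2-/- cells (limma adjusted p = 5.14e-12 and 4.55e-14). Cd63 rose over the same step by 2.09 ± 0.13 and 2.11 ± 0.13 (limma adjusted p = 1.46e-10 and 9.00e-11) and lay 2.43 and 2.03 lower in cDC1s than in macrophages. The genotype differences of Cd63 on its brightest probe were -0.28 ± 0.13 in macrophages and -0.30 ± 0.13 in monocytes. The dimmest Cd63 probe gave 1.13 ± 0.47 in macrophages, the opposite direction, with WT array 12 at 5.57 against 8.12 to 9.59 on the other WT arrays. Cd9 was higher in cDC1s than in macrophages: it read 11.29 and 11.32 in WT and 11.32, 10.80 and 10.61 in Mbd2-/- cells, 1.61 ± 0.32 above WT macrophages (adjusted p = 0.000296, limma) and 0.88 ± 0.28 above Mbd2-/- macrophages (adjusted p = 0.0120, limma). The Mbd2-/- difference was no longer past the test with median scaling (0.14, adjusted p = 0.746) or without Mbd2-/- cDC1 array 27 (0.67, adjusted p = 0.0927, limma). WT macrophage array 12 was also the lowest for Cd9, at 8.51 against 9.67 to 10.15, and without it Cd9 rose from WT monocytes to WT macrophages (0.65, adjusted p = 0.0106, limma) where all arrays gave 0.35 (adjusted p = 0.323).

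**Figure D3:**
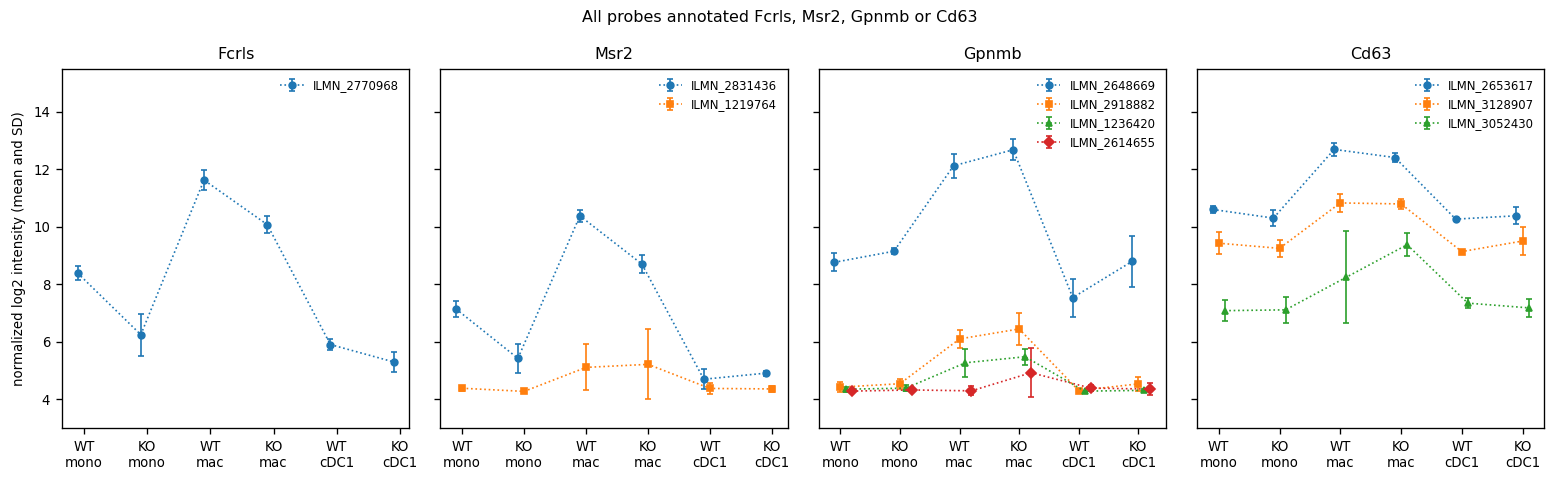
Mean and SD of the normalized log2 intensity (y axis) of every probe annotated Fcrls, Msr2, Gpnmb or Cd63 in the 6 groups (x axis; 1 line per probe). The Fcrls probe and the brighter Msr2 probe step down from WT to Mbd2-/- cells in monocytes and in macrophages but not alike in cDC1s, while the 3 dimmer Gpnmb probes and the dimmer Msr2 probe lie near the background level of 4 outside macrophages.

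Mbd2 binds methylated CG dinucleotides in DNA, and the arrays measured no methylation. The sequence before the transcription start is shown for the 3 genes that were lower without overlap in both Mbd2-/- monocytes and Mbd2-/- macrophages. It is also shown for Cd81, a member with a CG-dense promoter that was lower in Mbd2-/- monocytes and cDC1s. Of all symbols tested, 3.34% in macrophages and 3.19% in monocytes were lower without overlap, and the members were chosen on these comparisons. Each is the 250 bases before a RefSeq start on GRCm38.p6, 5′ to 3′ on the gene's strand, with CG dinucleotides in capitals; the first of 2 listed starts is shown for Spp1.

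Trem2 (chr17:48346151-48346400, + strand): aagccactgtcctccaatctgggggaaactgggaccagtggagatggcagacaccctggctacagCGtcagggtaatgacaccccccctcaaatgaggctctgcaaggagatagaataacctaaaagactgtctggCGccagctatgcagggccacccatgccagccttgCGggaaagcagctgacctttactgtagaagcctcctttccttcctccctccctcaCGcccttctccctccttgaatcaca

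Fcrls (chr3:87263525-87263774, - strand): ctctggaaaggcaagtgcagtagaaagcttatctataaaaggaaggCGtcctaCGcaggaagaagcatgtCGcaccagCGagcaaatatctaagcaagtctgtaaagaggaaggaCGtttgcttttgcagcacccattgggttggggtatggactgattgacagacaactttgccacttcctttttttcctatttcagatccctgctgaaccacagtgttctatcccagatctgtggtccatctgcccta

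Spp1 (chr5:104434861-104435110, + strand): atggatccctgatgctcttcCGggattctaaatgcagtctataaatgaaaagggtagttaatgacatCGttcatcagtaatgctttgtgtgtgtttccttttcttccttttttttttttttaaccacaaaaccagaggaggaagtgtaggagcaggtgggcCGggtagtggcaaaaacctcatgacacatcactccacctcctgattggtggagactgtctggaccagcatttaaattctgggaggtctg

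Cd81 (chr7:143052500-143052749, + strand): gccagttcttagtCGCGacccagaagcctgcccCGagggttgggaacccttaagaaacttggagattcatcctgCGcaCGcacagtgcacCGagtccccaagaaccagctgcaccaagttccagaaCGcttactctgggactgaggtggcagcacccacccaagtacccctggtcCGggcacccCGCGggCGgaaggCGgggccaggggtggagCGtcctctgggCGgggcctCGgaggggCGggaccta

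The Trem2 window holds 4 CG dinucleotides, that of Fcrls 5 and each of the Spp1 windows 3, against a median of 6 (quartiles 2 and 16) over 32851 such windows. Cd81 and Cd9 hold 16 each, Lgals3 13, Gpnmb 7 and Cd63 6, and Tyrobp was not in the table. The windows of Trem2, Fcrls and Spp1 therefore lie near or under the middle of all promoters in CG count, and those of Cd81 and Cd9 at the upper quartile. Cd81 was itself lower in Mbd2-/- monocytes (-0.89) and Mbd2-/- cDC1s (-0.76), and its genotypes overlapped in macrophages (-0.29). Cd9, with the same CG count, overlapped between genotypes in macrophages (0.34), monocytes (-0.17) and cDC1s (-0.39), and Lgals3 overlapped in all 3 cell types too. A link between CG count and the genotype differences was not tested. The PU.1 core GAGGAAGT, searched on both strands, occurs once in the Spp1 window shown and in none of the other members' windows, and it occurs in 2.44% of all windows. The AP-1 motif TGACTCA and the E box CACGTG occur in no member window, and in 4.46% and 6.02% of all windows.

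Counted as called (adjusted p under 0.05 and a difference of at least 1 log2 unit, brightest probe of each symbol), 4 of the 10 symbols were lower and 0 higher in Mbd2-/- macrophages: Trem2, Spp1, Fcrls and Msr2. Over all symbols tested, 0.152% were called lower and 1.18% higher. In monocytes 3 were called lower (Spp1, Fcrls and Msr2) and 0 higher, against 0.142% and 0.317% of all symbols. The members were selected on these 2 comparisons, so nothing is read from those counts. Fcrls and Msr2 are symbols of the same gene, which enters the counts and medians under both. In cDC1s, where 0.981% of all symbols were called lower and 0.803% higher, Spp1 was called lower and Gpnmb higher. The median difference over the 10 symbols was -0.29 in macrophages, -0.56 in monocytes and 0.11 in cDC1s, beside -0.08, -0.03 and 0.05 over all symbols tested. With median scaling the calls over all symbols in monocytes changed from 38 higher and 17 lower to 14 and 35, and those in cDC1s from 104 higher and 127 lower to 6 and 383.

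The genotype difference in macrophages minus that in monocytes was small for Spp1 (-0.05 ± 0.26) and Msr2 (0.04 ± 0.28), and it was -0.38 ± 0.26 for Trem2 and 0.60 ± 0.36 for Fcrls (log2, SE). It was 0.60 ± 0.14 for Cd81, whose genotype difference was wider in monocytes. The genotype difference in cDC1s minus that in macrophages was 1.31 ± 0.32 for Trem2 and 1.89 ± 0.35 for Msr2, both near background in cDC1s, and 0.21 ± 0.32 for Spp1, which was well above it. These values carry no test, since the genotype differences in macrophages and monocytes chose the members.

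Markers of other cells were compared between the genotypes as well. The 10 macrophage markers summed to between 18863 and 21966 in WT and between 17576 and 22367 in Mbd2-/- monocytes, overlapping ranges. In macrophages they summed to between 42986 and 49654 in WT and between 44792 and 51227 in Mbd2-/- cells, which overlapped too. Single macrophage markers went both ways in monocytes. Mrc1 averaged 10.58 in WT and 9.84 in Mbd2-/- monocytes, and Cx3cr1 8.46 and 7.80. C1qa averaged 10.38 and 10.89, and Mertk 7.21 and 7.70. The 7 monocyte markers on the array summed to between 4953 and 7704 in WT and between 6844 and 9648 in Mbd2-/- macrophages. The 4 B and plasma cell markers on the array summed to between 340 and 424 in WT and between 181 and 298 in Mbd2-/- monocytes, without overlap, and to between 557 and 921 and between 317 and 658 in macrophages, mostly from Cd79b, with Ms4a1 above background on no monocyte array. The 3 eosinophil markers summed to between 86.0 and 112 in WT and between 104 and 174 in Mbd2-/- macrophages, from Prg2, with Siglecf and Epx above background on no colon array.

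In cDC1s, where Spp1, Cd81 and Gpnmb passed the test, several of these sums were higher on every Mbd2-/- than on every WT array. Such separation was common, as 18.1% of all symbols tested in cDC1s were higher in Mbd2-/- cells without overlap. The separation of the sums is therefore given only as a description. The monocyte markers summed to between 6694 and 7002 in WT and between 7783 and 9864 in Mbd2-/- cDC1s, and the macrophage markers to between 1533 and 1607 and between 1806 and 4398. The B and plasma cell markers (119 to 132 and 146 to 174), the neutrophil markers (200.9 to 217.0 and 217.3 to 450.9) and the eosinophil markers (61.9 to 72.4 and 96.8 to 122) did not overlap either. The cDC1 markers summed to between 11881 and 13015 in WT and between 10535 and 12970 in Mbd2-/- cDC1s and overlapped, as did the T cell, mast cell, epithelial and stromal sums. The part of these markers in the member differences, those of Spp1, Cd81 and Gpnmb in cDC1s included, was not tested.

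Arrays stand in the deposited table in sets of 6 columns that may reflect the slides, which the headers do not name. Each of the 2 macrophage sets and each of the 2 monocyte sets held both genotypes. Trem2 differed between Mbd2-/- and WT macrophages by -1.52 and -0.95 within the 2 sets, Fcrls by -2.00 and -1.08, and Spp1 by -1.29 and -1.35. The monocyte sets gave -1.13 and -0.51 for Trem2, -2.92 and -1.57 for Fcrls, -1.46 and -0.89 for Spp1, and -0.93 and -0.81 for Cd81. All of these within-set differences kept the direction of the pooled ones. Monocytes and macrophages lay in different sets, as did WT and Mbd2-/- cDC1s and also WT cDC1s and WT macrophages, so for those comparisons the set and the group cannot be told apart. Mbd2-/- cDC1 arrays 27 and 28 shared their sets with Mbd2-/- macrophages. Within those 2 sets, cDC1s differed from macrophages by -3.55 and -4.53 for Trem2, by 0.66 and 0.79 for Spp1, by 1.18 and 0.84 for Cd9 and by 0.20 and 0.44 for Lgals3, and all 10 symbols kept the direction of the pooled difference.

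Most members also differed between the sorted cell types. They were listed as macrophage-associated genes, so calls toward macrophages may follow from that choice. Fcrls again counts under both of its symbols. In WT cells 5 of 10 symbols were called higher in macrophages than in monocytes (Fcrls, Msr2, Gpnmb, Cd63 and Cd81) and 0 lower, where 2.60% of all symbols were called higher and 2.08% lower. In Mbd2-/- cells the same 5 symbols were called higher and 0 lower, against 2.94% and 2.57% of all symbols. From macrophages to cDC1s, 6 of 10 were called lower in WT cells (Trem2, Tyrobp, Fcrls, Msr2, Gpnmb and Cd63) and Cd9 higher, against 9.02% and 7.55% of all symbols. In Mbd2-/- cells those 6 and Cd81 were called lower and 0 higher, against 9.52% and 7.89%. Gpnmb was lower in cDC1s by 4.59 in WT and by 3.88 in Mbd2-/- cells (SE 0.35 and 0.30). The median over the 10 symbols was 1.47 and 1.48 from monocytes to macrophages and -1.83 and -1.55 from macrophages to cDC1s, in WT and Mbd2-/- cells, while the medians over all symbols lay between -0.08 and 0.03.

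**Figure D4:**
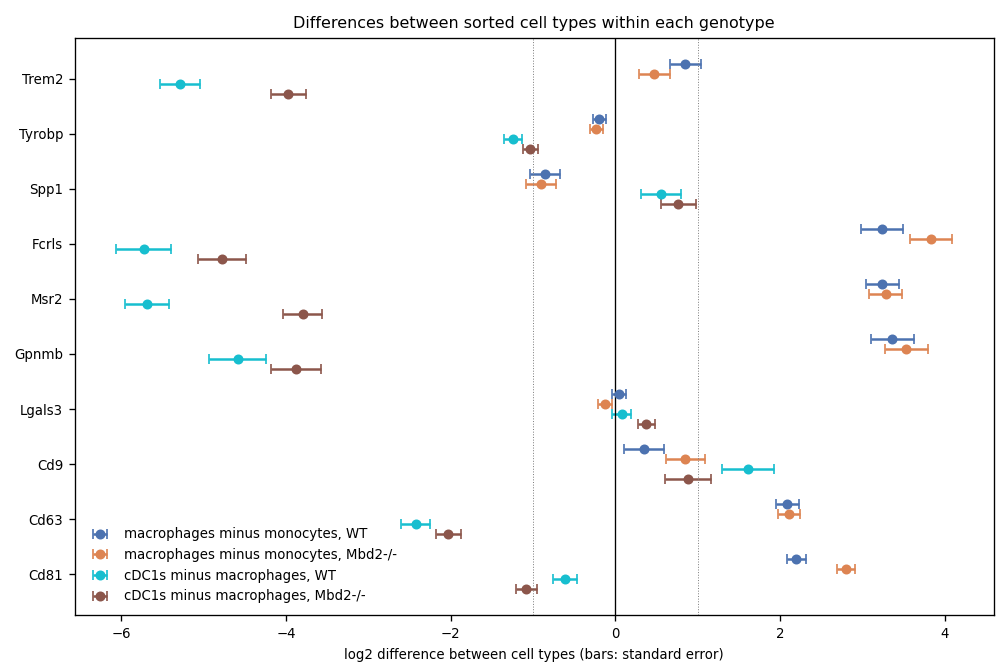
Log2 difference between sorted cell types (x axis) for each gene (y axis), within WT and within Mbd2-/- cells; points are estimates, bars standard errors, and dotted lines mark 1 log2 unit. Fcrls, Msr2 and Gpnmb lie more than 3 units above 0 for macrophages minus monocytes and more than 3 units under 0 for cDC1s minus macrophages, and Cd9 lies above 0 in all 4 comparisons.

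Genes around the members were described from 9 lists of signalling partners, relatives and co-expressed macrophage genes. Of these, 1 of 74 tested was called in macrophages between genotypes, 0 of 70 in monocytes and 0 of 67 in cDC1s (limma), while 17, 9 and 18 had an unadjusted p under 0.05. Over all symbols tested, 23.1% in macrophages, 14.4% in monocytes and 24.0% in cDC1s had an unadjusted p that low. The 1 called gene was Plin2, which coats lipid droplets and belongs to the lipid-associated list of 19 genes; it was higher in Mbd2-/- macrophages (9.60 against 7.99, 1.60 ± 0.34, adjusted p = 0.0119, limma), the direction opposite to that of Trem2. None of the 12 tested genes of TREM2-DAP12 signalling and shedding, such as the kinase Syk and the sheddases Adam10 and Adam17, was called between genotypes in any of the 3 cell types, and their median differences were -0.06 in macrophages, -0.02 in monocytes and 0.22 in cDC1s. The osteopontin receptor list likewise had 0 calls between genotypes, with medians of -0.10, -0.13 and -0.18.

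Some of these lists held more calls between cell types. The TREM2-DAP12 list had 0 of 12 called between macrophages and monocytes in either genotype, with 6 of 12 at an unadjusted p under 0.05 in each (limma). The share of all symbols with an unadjusted p that low was not computed between cell types, so nothing is read from that count. Of the 16 tested lipid-associated genes, 5 were higher in WT macrophages than in WT monocytes and 0 lower, led by the growth factor Igf1 (2.16 ± 0.19, adjusted p = 2.18e-08), the lipoprotein lipase Lpl (2.04 ± 0.29, adjusted p = 1.36e-05) and the receptor tyrosine kinase Axl (1.60 ± 0.18, adjusted p = 6.46e-07; all limma), and in Mbd2-/- cells 8 of 16 were higher, Apoe and Fabp5 among them, where 2.60% of all symbols were called higher in WT and 2.94% in Mbd2-/- macrophages. Of the 8 genes that accompany Fcrls in microglia, 5 rose from WT monocytes to macrophages, led by Olfml3 (2.56 ± 0.26), the fractalkine receptor Cx3cr1 (2.07 ± 0.26) and Tmem119 (1.86 ± 0.30), and 5 rose in Mbd2-/- cells. Among other receptors that pair with DAP12 or DAP10, the direction was the reverse: Trem1, an amplifier of inflammatory signals on neutrophils and monocytes, fell from WT monocytes to macrophages by 2.22 (SE 0.18), Trem3 by 1.85 (SE 0.15) and Treml4 by 1.44 (SE 0.21), and in Mbd2-/- cells Trem1 and Trem3 fell by 1.71 and 1.93. In cDC1s compared with macrophages, 11 of 17 lipid-associated genes were lower in WT and 12 of 17 in Mbd2-/- cells, against 9.02% and 9.52% of all symbols, with Axl lower by 4.17 and 3.53 and Apoe by 3.74 and 3.49. The osteopontin-binding integrin subunit Itgb5 fell by 4.68 and 3.73 over the same step, and Klrk1 (NKG2D), which pairs with DAP10, rose by 2.70 in WT and 1.29 in Mbd2-/- cDC1s. The T cell markers summed to between 497 and 2351 in WT and between 301 and 1803 in Mbd2-/- cDC1s. In macrophages they summed to between 215 and 382 in WT and between 214 and 299 in Mbd2-/- cells. Their part in the Klrk1 rise was not tested.

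Outside the members, the 3 probes whose 6 group means, each centred on its own mean, lay nearest to those of Trem2 were Cd93 (root mean square difference 0.31 log2 units), a C1q-binding and adhesion receptor, Cd300ld (0.33) and the chemokine Ccl9 (0.42), out of 16987 probes. Nearest to Fcrls were Retnla (0.60), a secreted protein of alternatively activated macrophages, the collagenase Mmp13 (0.62) and the platelet factor Pf4 (0.70). The brighter Msr2 probe lay closer to Fcrls than any of these, at 0.34. On the centred scale, Cd93 stood at 1.81 in WT macrophages and 1.65 in Mbd2-/- macrophages and at -2.73 in WT cDC1s, and Retnla at 3.99 in WT and 2.98 in Mbd2-/- macrophages. These are likenesses over 6 group means and are given as a description.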

How the data were processed

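The 27 samples are Illumina MouseWG-6 bead arrays, of which 25 hold sorted colon cells. The 2 arrays of spleen CD4 T cells, 1 per genotype, were used only for detection. Those T cells are labelled as taken 6 weeks after transfer, and no DSS is given for them. Per the file headers, the deposited intensities are bead averages exported without normalization, each with a deposited detection p-value against negative control probes and, as another measurement, the number of beads per probe, which the authors' export also holds; the member probes had 21 to 73 beads. The submitters' processing notes name lumi and limma without versions; a genome build is not given in the sources used here. The record gives 1 to 5 mice per replicate and the methods up to 10. Signal columns of 3 further arrays belong to no sample and were not used.

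Intensities were corrected with normexp on 936 negative controls (offset 16), quantile normalized over the 25 colon arrays and taken to log2 (limma 3.58.1, R 4.3.3). A gene is its brightest probe by mean over the 25 arrays. 1 linear model with 6 groups was fitted, and two-sided moderated tests were adjusted by Benjamini-Hochberg within each comparison over the probes above background (detection p under 0.05) on a number of arrays no lower than the size of the smaller group; called means adjusted p under 0.05 and at least 1 log2 unit. Fold changes depend on the offset and understate those of dim probes. The methods call the arrays biological replicates from 3 separate experiments, which the labels do not assign to arrays, so experiment could not be a term; no 2 arrays were identical. The fit was tested on simulated data.

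The members and the lists were chosen with earlier results of these data known. The named genes are all members, of each list the called genes with the largest difference (up to 3 per direction), and the 3 nearest probes among those above background on at least 10 arrays. Accessions of 15 of 16 member probes were given and 15 matched RefSeq, 14 under the listed symbol. Promoter sequences are RefSeq's on GRCm38.p6. Counts of calls use the brightest probe of each symbol on both sides. Control probes were left out of the quantile step, a choice made after the data were seen, and keeping them was run as an added alternative. Other alternatives were the background correction, offset, scaling, filter, array weights, column sets, separate fits, thresholds, other probes and each array left out. Precision rests on the number of arrays.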

Additional observations from a re-analysis of the deposited data

Results flagged for a closer look

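In 64 groups of 5 arrays examined for the member probes, 5 held an array far from the rest, where chance gives about 1 in 20. The brightest Gpnmb probe read 9.34 on Mbd2-/- monocyte array 6 against 9.08 to 9.13 on the others, and Lgals3 read 13.14 on WT monocyte array 4 against 13.26 to 13.30. Mbd2-/- macrophage array 20 stood apart on 2 dim probes, at 7.37 on the Msr2 probe with no accession (others 4.50 to 5.01) and at 6.42 on the dimmest Gpnmb probe (others 4.39 to 4.65). That Gpnmb probe also read 4.57 on WT macrophage array 15, against 4.20 to 4.28 on the others.

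The spleen CD4 T cell arrays enter no comparison, and 6 of the 10 symbols were above background on both of them, at un-normalized intensities of at least 248 for Tyrobp, 180 for Gpnmb, 2619 for Lgals3, 254 for Cd9, 89.4 for Cd63 and 209 for Cd81. Trem2 was above background on neither (78.6 and 86.2).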

How the results depend on the processing

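Of 1347 refitted member differences, 1277 kept their direction and their side of the threshold or moved by less than the spread between arrays; the others were 13 reversed, 36 weaker, 8 stronger and 13 moved. In macrophages the genotype difference kept its sign in 21 of 21 settings for Trem2 (-1.35 to -1.05), Spp1 (-1.36 to -0.92), Fcrls (-1.66 to -1.44) and Msr2 (-1.80 to -1.51), and in monocytes for Spp1 (-1.55 to -0.999), Fcrls (-2.51 to -1.43), Msr2 (-2.02 to -0.88) and Cd81 (-1.23 to -0.82). Keeping the control probes in the quantile step, an alternative chosen after seeing the data, changed no call count by more than 2.

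Median scaling moved the median over all symbols to -0.28 in monocytes, -0.36 in cDC1s and, for cDC1s minus macrophages, -0.19 in WT and -0.49 in Mbd2-/- cells, and to -0.07 in WT and 0.14 in Mbd2-/- cells for macrophages minus monocytes. It changed the calls for macrophages minus monocytes from 320 higher and 256 lower to 282 and 351 in WT and from 361 and 316 to 510 and 238 in Mbd2-/- cells, and for cDC1s minus macrophages from 1082 and 1292 to 830 and 1579 in WT and from 1048 and 1264 to 277 and 3128 in Mbd2-/- cells. It reversed the cDC1 genotype difference of Trem2 (-0.0016), Tyrobp (-0.21) and Cd63 (-0.36), Lgals3 between WT macrophages and monocytes (-0.10) and between WT cDC1s and macrophages (-0.12), and Spp1 between Mbd2-/- cDC1s and macrophages (-0.056). The Msr2 probe with no accession gave 0.11 in macrophages and the dimmest Cd63 probe -0.16 in cDC1s. With single arrays left out, the cDC1 genotype difference ran from -0.0016 to 0.30 for Trem2, from -0.028 to 0.45 for Msr2, from -0.020 to 0.37 for Lgals3 and from -0.036 to 0.26 for Cd63, and Lgals3 between WT cDC1s and macrophages from -0.12 to 0.27. The causes were not tested.

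Symbols called between genotypes numbered 166 in macrophages, 55 in monocytes and 231 in cDC1s. Without background correction they were 60, 16 and 55, and with an offset of 50 they were 92, 30 and 85. Median scaling gave 96 in macrophages and 389 in cDC1s, cyclic loess 145 in cDC1s, no filter 64 in macrophages, and array weights 98, 97 and 81. Fitted alone, macrophages gave 33 and cDC1s 0 (280 at an unadjusted p under 0.05 with the same fold minimum). An adjusted p under 0.01 gave 39 in macrophages and 81 in cDC1s, and no fold minimum gave 674, 223 and 877. Leaving out single arrays gave 59 to 262 in macrophages (59 without WT array 12, 90 without 14, 262 without 15, 62 and 73 without Mbd2-/- arrays 19 and 20), 39 to 81 in monocytes and 137 to 670 in cDC1s (137 without Mbd2-/- array 30, 670 without WT array 26). Between cell types, the WT and Mbd2-/- counts of 576 and 677 for macrophages minus monocytes became 279 and 311 without background correction, 367 and 422 with an offset of 50, and 3071 and 3479 with no fold minimum; those of 2374 and 2312 for cDC1s minus macrophages became 1253 and 1221 without background correction and 5375 and 6203 with no fold minimum. Members called in monocytes, 3 in the report, were 1 without background correction and 5 with median scaling or no fold minimum. Members called in cDC1s, 2 in the report, were 0 without background correction, with an offset of 50, no filter, array weights, a separate fit or an adjusted p under 0.01, 1 with cyclic loess, and 0 to 2 with single arrays left out. Members called between Mbd2-/- macrophages and monocytes were 8 with no fold minimum. The replicate numbers run over the whole series and do not show which arrays share mice, so no paired analysis was possible. The tests between cell types treated all arrays as independent, although some may come from the same mice. Signal over background and the 2 WT arrays limit the cDC1 values of Trem2 and Msr2.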
